A study of Mus musculus with 16 samples.

Results

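Genes of the normal airway and alveolar lining were followed through 16 mouse small cell lung cancers. The 10 genes were chosen by symbol, from 23224 gene rows of the deposited table: Scgb1a1, Scgb3a1, Scgb3a2 and Cyp2f2 for club cells, Foxj1 for ciliated cells, Sftpc, Sftpb and Sftpd for alveolar type 2 cells, and Ager and Aqp5 for alveolar type 1 cells. All tumors arose in mice of a mixed C57BL/6;129/Sv strain after deletion of Trp53 and Rb1, and their genotype is given as Trp53-/-; Rb1-/-. In addition, 8 tumors carry a CRISPR mutation of p107, encoded by Rbl1, and 8 a CRISPR mutation of p130, encoded by Rbl2, so no tumor without such a mutation and no normal lung is among the samples. Titles hold a number taken here to name the mouse (sgp107_6627 in sgp107_6627T1), so the p107 tumors came from 4 mice and the p130 tumors from 3, and no mouse has both genotypes. Tumors are bulk pieces dissected from the lung, and in bulk RNA fewer cells of a type cannot be told apart from less RNA per cell.

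The airway is lined by secretory club cells, which release secretoglobins and hold cytochrome P450 enzymes, and by ciliated cells, whose motile cilia depend on the transcription factor FOXJ1. In the alveolus, type 2 cells make surfactant, while flat type 1 cells cover the surface used for gas exchange. The surfactant proteins B and D are also made by club cells, whereas surfactant protein C is the product most restricted to type 2 cells. Small cell lung cancer itself has a neuroendocrine program.

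The tumors held 12700334 to 34620979 estimated counts each, and all 10 genes passed the filter on low counts. Levels are CPM, estimated counts scaled by edgeR to the size of each library with TMM factors, and are not divided by gene length. The 15 neuroendocrine genes summed to 6161 to 14740 CPM: Insm1, a neuroendocrine transcription factor, lay at 233.2 to 592.3 CPM. Rbl2 was at 55.4 to 127.6 CPM in p107 tumors and 15.6 to 54.4 CPM in p130 tumors, and Rbl1 at 64.3 to 246.7 CPM and 60.6 to 120.5 CPM. Xist, the RNA of the inactive X chromosome in females, was at 140 to 2271 CPM in the 6 tumors of mice sgp130_6637 and sgp130_6638, and at or below 4.17 CPM in the other 10.

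Promoter sequences were matched for 5 of the 10 genes in the RefSeq table of build GRCm38.p6, each with 250 bases before and 50 after the annotated start. The 4 shown are the promoters of a secretoglobin, a club cell enzyme and a surfactant gene whose lowest levels lay in the same 4 tumors, and of Ager, whose lowest levels did not. Their positions are chr11:49663345-49663644, chr7:27119705-27120004, chr6:72304360-72304659 and chr17:34597600-34597899, all on the plus strand. Capitals mark CTCAAG on either strand, the core read by NKX2-1, the lung lineage transcription factor.
Scgb3a1: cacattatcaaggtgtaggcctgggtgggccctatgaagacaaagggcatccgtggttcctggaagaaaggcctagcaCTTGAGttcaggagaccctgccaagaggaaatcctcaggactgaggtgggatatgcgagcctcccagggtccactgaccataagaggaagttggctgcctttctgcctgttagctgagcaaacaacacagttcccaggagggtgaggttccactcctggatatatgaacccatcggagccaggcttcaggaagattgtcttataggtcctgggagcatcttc
Cyp2f2: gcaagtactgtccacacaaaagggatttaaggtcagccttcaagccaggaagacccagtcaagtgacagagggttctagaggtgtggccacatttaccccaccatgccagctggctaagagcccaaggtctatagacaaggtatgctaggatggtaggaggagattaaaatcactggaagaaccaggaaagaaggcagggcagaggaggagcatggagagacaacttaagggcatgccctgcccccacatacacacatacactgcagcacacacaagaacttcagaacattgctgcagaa
Sftpb: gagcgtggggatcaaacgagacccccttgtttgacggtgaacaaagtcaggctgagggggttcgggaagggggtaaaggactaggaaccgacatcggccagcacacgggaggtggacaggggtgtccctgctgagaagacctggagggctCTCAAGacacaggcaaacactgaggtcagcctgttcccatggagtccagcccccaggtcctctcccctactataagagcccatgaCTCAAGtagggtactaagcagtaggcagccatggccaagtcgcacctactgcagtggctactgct
Ager: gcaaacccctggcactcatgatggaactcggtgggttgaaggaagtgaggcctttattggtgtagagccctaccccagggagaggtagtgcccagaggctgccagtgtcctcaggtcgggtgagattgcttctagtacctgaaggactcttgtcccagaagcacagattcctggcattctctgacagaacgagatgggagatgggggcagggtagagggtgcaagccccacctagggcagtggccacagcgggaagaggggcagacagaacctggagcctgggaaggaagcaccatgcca
CTCAAG began 172 bases before the Scgb3a1 start, on the minus strand, and 100 and 15 bases before the Sftpb start. It was not in the windows of Cyp2f2, Ager or Aqp5, and 15.9% of the 32851 promoters of this length in the table hold it. The forkhead core TGTTTAC (3.65% of promoters) and the C/EBP core TTGCNNAA (10.8%), searched on both strands, were in none of the 5 windows. Nkx2-1 itself lay at 159.5 to 392.6 CPM over the tumors.

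The 4 club cell genes were the most variable of the 10, and Scgb1a1 was the most abundant. Scgb1a1, which encodes the main club cell secretory protein, had a lowest, median and highest level of 78, 2431 and 7711 CPM in p107 tumors. In p130 tumors these were 55.4, 760.2 and 2255 CPM. Its highest level was 139 times its lowest, and Scgb1a1 alone took between 0.005246% and 0.7268% of the counts of a tumor. The groups overlapped over most of their range, and in each a few tumors stood far below the others.

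Scgb3a1, a secretoglobin of the larger airways, ranged from 3.67 to 551 CPM in p107 tumors (median 251) and from 1.28 to 196 CPM in p130 tumors (median 49.8), the widest ratio of the 10 genes at 431. Its lowest value rested on 23 estimated counts, in tumor sgp130_6697T1. Scgb3a2, a secretoglobin of the smaller airways, lay between 7.28 and 604 CPM in p107 tumors (median 269.9) and between 9.96 and 268 CPM in p130 tumors (median 90.7). Cyp2f2, the P450 enzyme that activates naphthalene in mouse club cells, lay between 6.32 and 326 CPM (median 194) and between 4.28 and 185 CPM (median 73.1). For each of the 4 genes the p107 and p130 ranges overlapped.

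**Figure D1:**
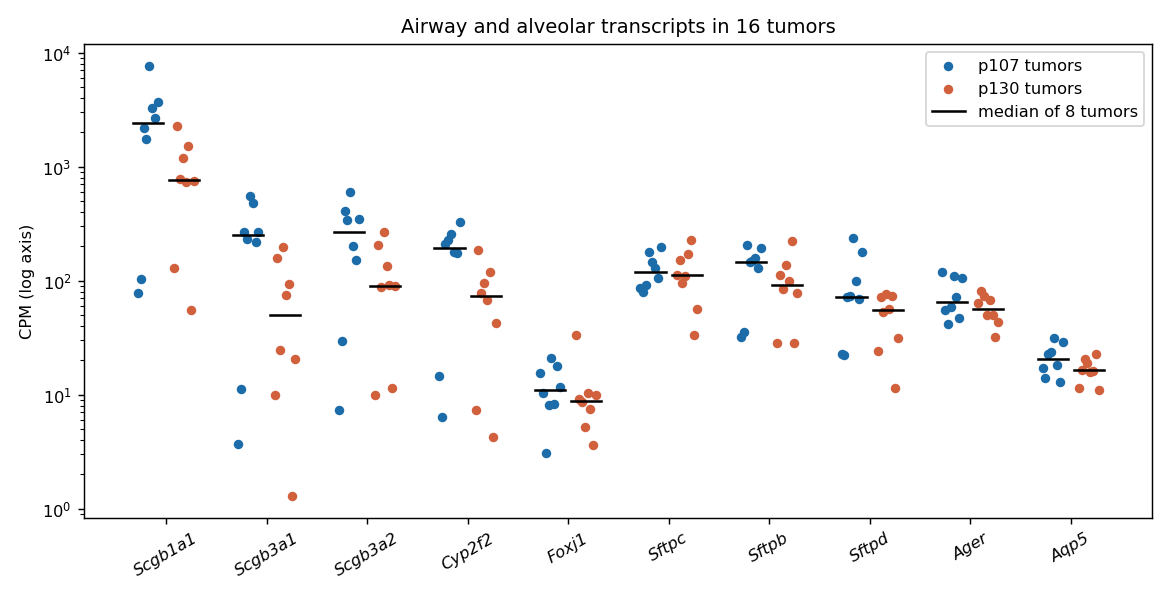
Level of each gene in CPM, on a log axis, with 1 point per tumor (8 p107 and 8 p130 tumors) and a bar at each group's median. The 4 club cell genes span the widest ranges, with Scgb1a1 from 55.4 to 7711 CPM, while Ager and Aqp5 stay within narrow bands.

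The 4 tumors lowest in Scgb1a1 were also the lowest in Scgb3a1, Scgb3a2 and Cyp2f2: sgp107_6627T1, sgp107_6627T2, sgp130_6637T1 and sgp130_6697T1. In them Scgb1a1 was at 78, 103.5, 129.6 and 55.4 CPM, against 732.8 to 7711 CPM in the other 12. Scgb3a1 was at most 11.25 CPM there and at least 20.4 CPM elsewhere, Scgb3a2 at most 29.5 against at least 88.2 CPM, and Cyp2f2 at most 14.5 against at least 42.2 CPM. Both genotypes were among the 4 tumors. Of 12148 tested genes with a mean of at least 5 CPM, 381 (3.136%) had these 4 tumors as their lowest.

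Low levels were not shared by all tumors of a mouse. In mouse sgp130_6637, Scgb1a1 was at 129.6 CPM in tumor T1, 2255 CPM in T2 and 776.2 CPM in T3, a 17.4-fold range. In mouse sgp130_6697 it was at 55.4 CPM in T1 and 744.3 CPM in T2, 13.4-fold apart. Both tumors of mouse sgp107_6627 were low, and in the 4 mice sgp107_6629, sgp107_6630, sgp107_6631 and sgp130_6638 the highest Scgb1a1 level was 1.25 to 2.34 times the lowest. Of the sum of squares of log2(CPM + 1) within genotypes, 73.8% lay between mice for Scgb1a1, 81% for Scgb3a1, 64.8% for Scgb3a2 and 68.9% for Cyp2f2. Among the other genes this share ran from 21.3% (Aqp5) to 75% (Sftpd). With 2 or 3 tumors per mouse, part of such a share arises without any difference between mice, and it was not tested.

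Surfactant genes divided along this line. Sftpb, for the surfactant protein that spreads the lipid film, lay at 28.6 to 35.2 CPM in the 4 tumors low in club cell genes and at 77.5 to 221 CPM in the other 12. Sftpd, for a collectin of innate defence, lay at 11.3 to 24.3 CPM and 31.6 to 235 CPM. Both therefore had the same 4 tumors at the bottom as Scgb1a1.

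Sftpc, for surfactant protein C, did not. It was at 33.4 to 112.4 CPM in those 4 tumors and 56.1 to 229 CPM in the others, and tumor sgp130_6637T1, with 129.6 CPM of Scgb1a1, had a Sftpc level of 112.4 CPM, close to the median of 111 CPM over all tumors. By genotype, the lowest, median and highest Sftpc levels were 80, 118 and 198 CPM in p107 tumors and 33.4, 111 and 229 CPM in p130 tumors. The lowest Sftpc levels were both in mouse sgp130_6697, at 33.4 and 56.1 CPM.

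Alveolar type 1 genes varied least. Ager, for the receptor RAGE, on the basal face of type 1 cells, had a lowest, median and highest level of 41.4, 65.4 and 118.4 CPM in p107 tumors and 32.2, 56.7 and 80.8 CPM in p130 tumors. Its highest level was in sgp107_6627T1, where Scgb1a1 was at 78 CPM. Aqp5, for a water channel of type 1 cells and of airway glands, lay between 12.9 and 31.2 CPM in p107 tumors and between 11 and 22.8 CPM in p130 tumors. The highest level was 3.68 times the lowest for Ager and 2.83 times for Aqp5. On the log2(CPM + 1) scale, the SD over the 16 tumors was 0.524 for Ager and 0.414 for Aqp5, against 1.95 to 2.47 for the club cell genes and a median of 0.372 over the 12148 genes with a mean of at least 5 CPM.

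Foxj1, the ciliated cell regulator, was low and went its own way. It lay between 3.08 and 20.9 CPM in p107 tumors (median 10.9) and between 3.62 and 33.6 CPM in p130 tumors (median 8.84). Its highest level was in sgp130_6637T1, which was low in club cell genes. The 24 further ciliated genes in the table summed to 83.9 to 246.4 CPM in a tumor, and single genes differed widely in level. Rsph1, a radial spoke gene, lay at 8.04 to 52.9 CPM and Tppp3 at 2.96 to 38.85 CPM, while Sntn, for the tip protein sentan, did not exceed 0.2391 CPM and Tekt1, for an axonemal tektin, 3.552 CPM.

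**Figure D2:**
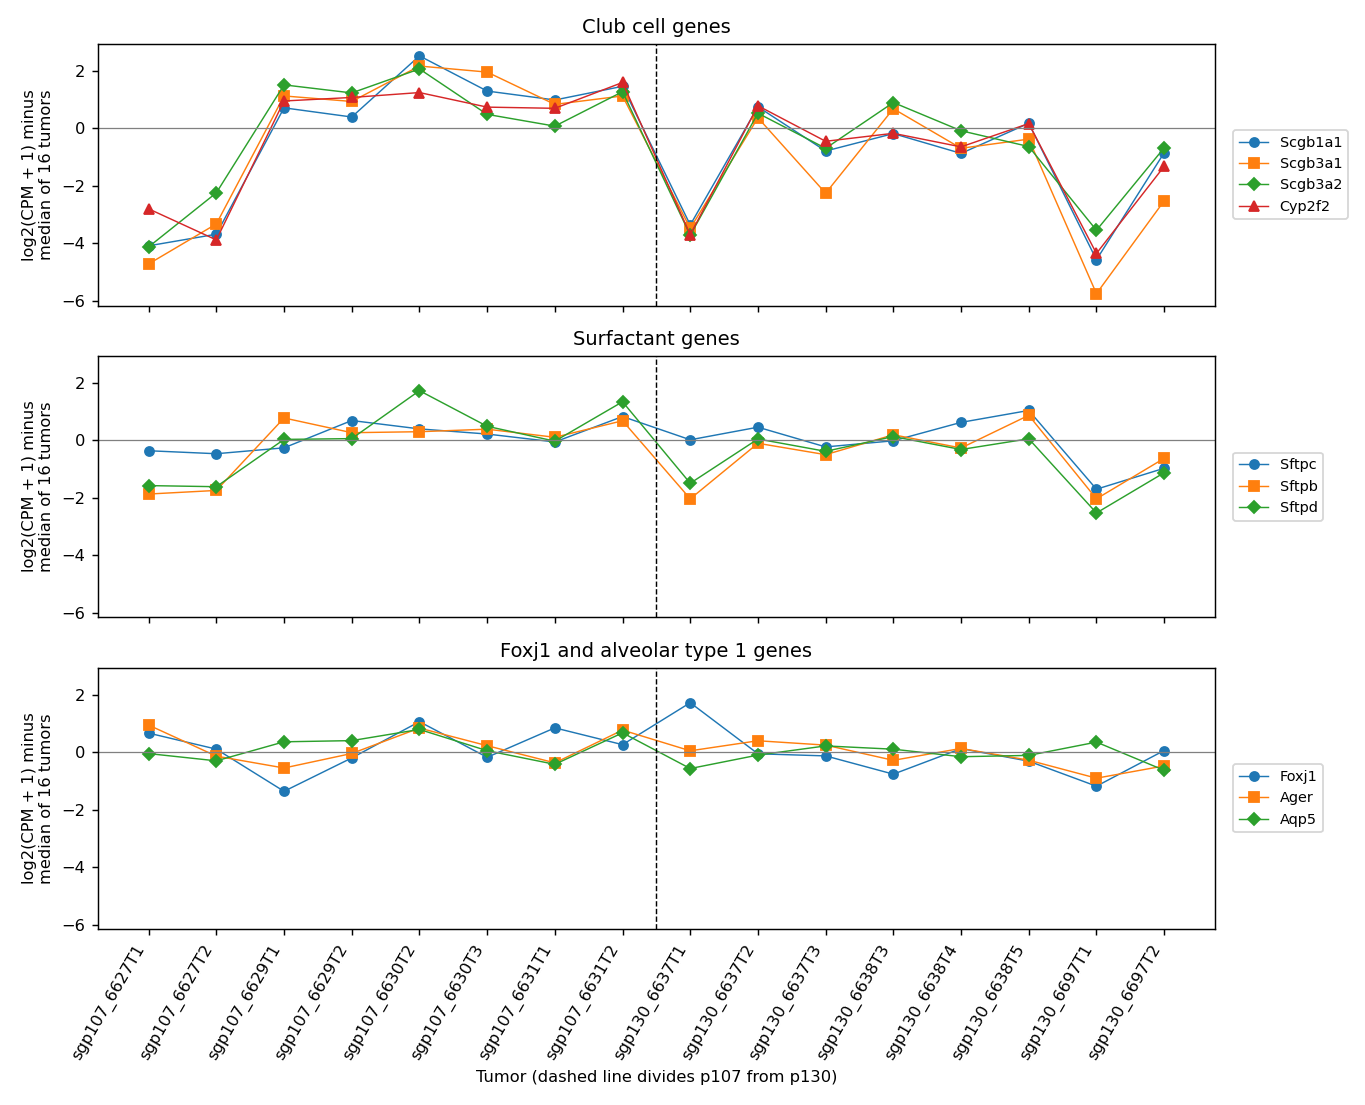
log2(CPM + 1) of each gene minus its median over the 16 tumors, for each tumor in title order, with p107 tumors left of the dashed line. The 4 club cell genes drop together in sgp107_6627T1, sgp107_6627T2, sgp130_6637T1 and sgp130_6697T1, Sftpb and Sftpd drop there less, and Foxj1, Ager and Aqp5 do not follow.

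Per kilobase of transcript (GENCODE M21 principal transcripts, a later annotation than the counts), the median level over the tumors was 2834 CPM per kb for Scgb1a1, 260.6 for Scgb3a2 and 254.9 for Scgb3a1. It was 140.2 for Sftpc, 81 for Sftpb, 57.6 for Cyp2f2, 55.1 for Sftpd, 44.7 for Ager, 9.82 for Aqp5 and 3.62 for Foxj1. Scgb1a1 exceeded Scgb3a2 in 16 of 16 tumors, Sftpc exceeded Sftpb in 15, Ager exceeded Aqp5 in 16 and Aqp5 exceeded Foxj1 in 15. Neighbours with no fixed order were Scgb3a2 and Scgb3a1 (the first higher in 11 tumors), Scgb3a1 and Sftpc (8), Sftpb and Cyp2f2 (11), Cyp2f2 and Sftpd (7), and Sftpd and Ager (8).

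The genotype comparison asked whether tumors with mutated p107 and p130 differ in these transcripts. All 10 had higher mean levels in p107 tumors, where 50% of all tested genes had a log2 fold change above 0, but none passed. Several marker lists of other cell types leaned the same way. Higher in p107 tumors were 11 of 14 tested endothelial, 11 of 12 fibroblast, 6 of 6 mesothelial and 5 of 5 lymphocyte genes. Of these 0 passed, with 6, 2, 2 and 3 at an unadjusted edgeR p under 0.05. Other lists leaned less or the other way, with 7 of 15 neuroendocrine, 6 of 10 macrophage and 5 of 17 further ciliated genes higher. At the same unadjusted edgeR p were 2, 0 and 8 of them. The summed lymphocyte level was 111.4 CPM in sgp107_6631T2 and at most 9.55 CPM in every other tumor. The part of these cell types in the levels of the 10 genes was not tested. Of 14857 genes tested in edgeR, 0.0269% had an adjusted p under 0.05, and 0 of the 10 genes did. Without adjustment 11.8% of all genes had p under 0.05 in this fit, and again 0 of the 10 genes did. In 0.141% of all tested genes the p107 and p130 tumors did not overlap, and for 0 of the 10 genes.

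The differences with their errors were widest for club cell genes. Scgb1a1 averaged 2690 ± 2426 CPM with p107 mutated and 924 ± 723.7 CPM with p130 mutated (SD, n = 8 each). The log2 fold change was 1.54 ± 0.79 SE, with an edgeR adjusted p = 0.464 and a 95% interval of the fold from 0.916 to 9.26. Scgb3a1 was at 253.7 ± 193 CPM and 72.4 ± 72.7 CPM (SD, n = 8 each; log2 fold change 1.81 ± 0.89 SE, edgeR adjusted p = 0.441). The log2 fold changes of Scgb3a2 and Cyp2f2 were 1.21 ± 0.73 SE each (edgeR adjusted p = 0.535). With this spread between tumors the intervals ran from below 1 to several fold, and a difference within them was not detectable.

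For the alveolar genes the intervals were narrower. Sftpd averaged 96.5 ± 74.5 CPM with p107 mutated and 49.9 ± 24.8 CPM with p130 mutated (SD, n = 8 each; log2 fold change 0.95 ± 0.48 SE, edgeR adjusted p = 0.449). Sftpb had a log2 fold change of 0.41 ± 0.44 SE and Sftpc of 0.09 ± 0.32 SE, with 95% intervals of the fold from 0.698 to 2.53 and from 0.665 to 1.69. Ager and Aqp5 had log2 fold changes of 0.40 ± 0.24 SE and 0.34 ± 0.21 SE, and Foxj1 of 0.12 ± 0.42 SE.

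Exact two-sided permutation tests of mean log2(CPM + 1) gave p from 0.152 (Aqp5) to 0.602 (Foxj1) over tumors. Over the means of the 7 mice, where 0.0286 is the smallest p possible, exact permutation p ranged from 0.171 (Aqp5) to 0.600 (Foxj1 and Sftpc). Without mice sgp130_6637 and sgp130_6638, only tumors low in Xist remained, with sgp130_6697 as the only p130 mouse. The log2 fold change was then 2.75 for Scgb1a1 and 4.55 for Scgb3a1 (edgeR adjusted p = 0.861 and 0.721). Sftpc moved most in proportion, to 1.51 (edgeR unadjusted p = 0.00371, adjusted p = 0.365), and Sftpd was at 2.17 (edgeR adjusted p = 0.746). Unadjusted edgeR p was also under 0.05 for Scgb3a1 (0.0366), Ager (0.0417) and Sftpd (0.0443), and for 1037 of all 15832 genes in that fit.

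**Figure D3:**
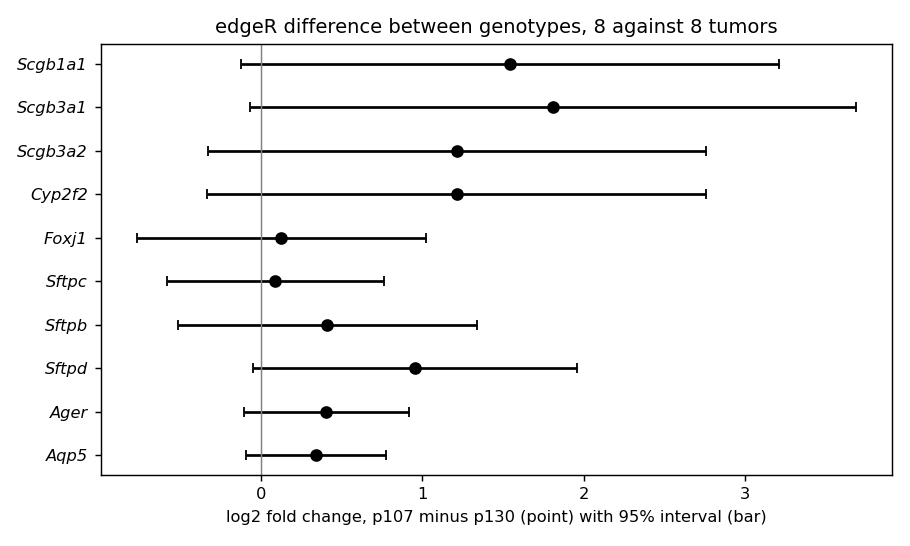
edgeR log2 fold change of each gene, p107 minus p130, as a point with its 95% interval as a bar, for 8 against 8 tumors. Every interval includes 0, and those of the 4 club cell genes are the widest.

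How far the 10 genes varied together was examined in 45 pairs, with Benjamini-Hochberg adjustment over the pairs. Since 4 tumors formed a separate cluster at low club cell levels, coefficients are those over the other 12 tumors, with permutation p from 100000 draws. This subset was chosen after the levels were seen, and tumors of a mouse are not independent. Scgb1a1 followed Cyp2f2 (Pearson r = 0.871, permutation adjusted p = 0.00345, and Spearman rho = 0.853, permutation adjusted p = 0.0106) and Scgb3a1 (r = 0.862, adjusted p = 0.00292, rho = 0.853, adjusted p = 0.0106, by permutation). Within the 6 pairs of club cell genes rho lay between 0.678 and 0.853, and 5 pairs passed by rho. The sixth pair was Scgb1a1 with Scgb3a2 (rho = 0.678, permutation adjusted p = 0.0586), which passed by r (r = 0.743, permutation adjusted p = 0.0189).

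Sftpd followed each club cell gene among the 12 tumors, with rho from 0.734 (Scgb3a2) to 0.797 (Scgb3a1) and permutation adjusted p from 0.0223 to 0.0347. Sftpb had rho of 0.559 to 0.678 with them, and Sftpc 0.154 to 0.406, with no pair past the threshold by rho. By r, Sftpb passed with Scgb3a1 (r = 0.694, permutation adjusted p = 0.0353) and Cyp2f2 (r = 0.711, permutation adjusted p = 0.0321). Aqp5 passed with Scgb3a2 (rho = 0.748, permutation adjusted p = 0.0304) and Cyp2f2 (rho = 0.776, permutation adjusted p = 0.0285), unlike Ager (rho from 0.231 to 0.469 with the club cell genes). In all, 11 of 45 pairs passed by rho and 16 by r. Over all 16 tumors 21 pairs passed by rho, and without the 2 tumors farthest from the median again 21.

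Foxj1 passed with none of the other 9 genes by rho, over 12 or 16 tumors. Its highest coefficient was with Ager over the 16 tumors (r = 0.56, rho = 0.556, permutation adjusted p = 0.0492 and 0.0552), and r without the 2 tumors farthest from the median of Foxj1 was 0.64. Ager and Aqp5, both type 1 genes, had r = 0.325 and rho = 0.268 over the 16 tumors (permutation adjusted p = 0.32 and 0.407). Within p107 tumors 0 of 45 pairs passed by rho and 8 by r, and within p130 tumors 10 and 18 (exact permutation, n = 8 each).

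**Figure D4:**
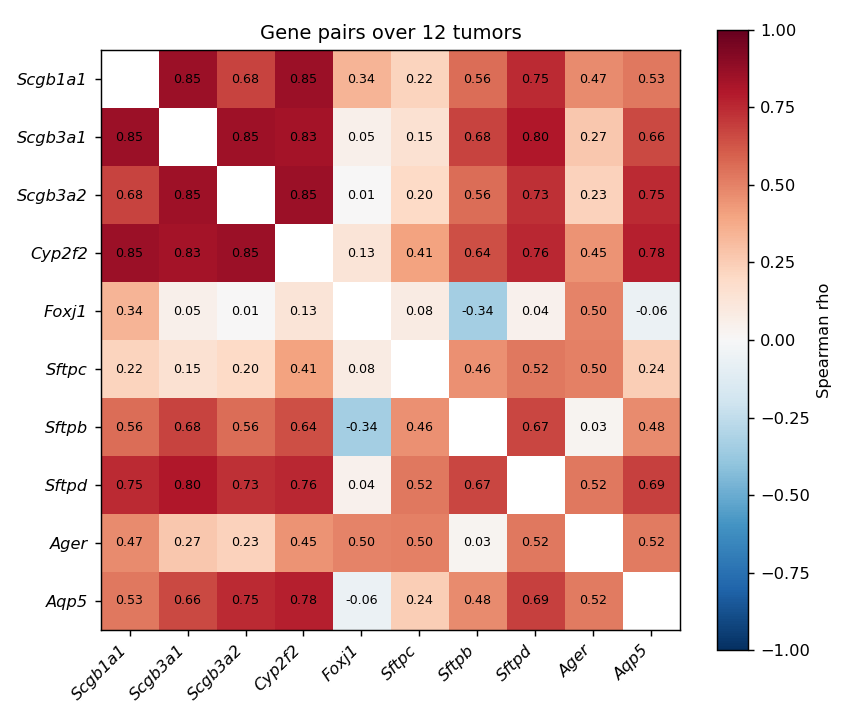
Spearman rho of log2(CPM + 1) for each pair of the 10 genes over the 12 tumors outside the low cluster. The block of club cell genes and Sftpd is dark, with rho of 0.678 to 0.853, and the row of Foxj1 is pale.

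**Figure D5:**
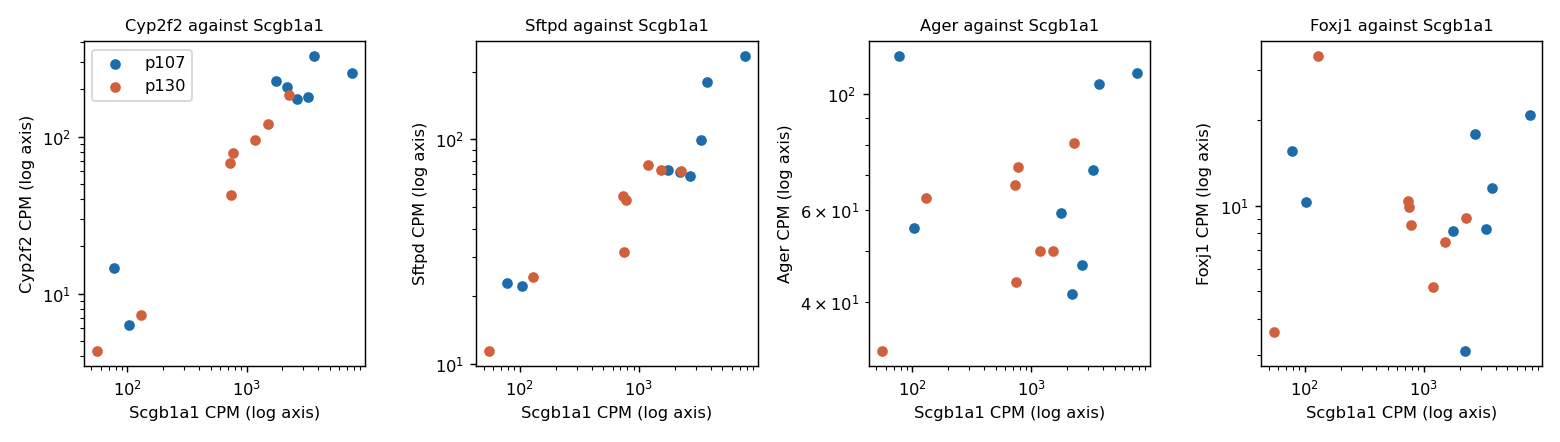
Level of Cyp2f2, Sftpd, Ager and Foxj1 against Scgb1a1 in CPM, on log axes, with 1 point per tumor coloured by genotype. Cyp2f2 and Sftpd climb with Scgb1a1, and the 4 tumors at or below 129.6 CPM of Scgb1a1 span 32.2 to 118.4 CPM of Ager and 3.62 to 33.6 CPM of Foxj1.

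Among all 12147 other tested genes with a mean of at least 5 CPM, those whose pattern over the 16 tumors was most like Scgb1a1 were Pon1, Cp, Hp, Selenbp1, Gabrp and Slc4a5, with rho of 0.962 to 0.985 (0.916 to 0.965 over the 12 tumors). Pon1 and Hp are also on the list of further club and secretory genes. Pon1, for the esterase paraoxonase, lay at 0.612 to 0.869 CPM in the 4 low tumors and at 6.48 to 94.8 CPM in the rest. Hp, for haptoglobin, lay at 10.1 to 30.4 CPM and 83.2 to 579 CPM. Both were picked for high rho with Scgb1a1, so this split follows in large part from that choice. By the same measure Scgb3a1 was the 17th most alike, Cyp2f2 the 21st, Sftpd the 55th, Scgb3a2 the 81st and Sftpb the 138th gene, and Foxj1 the 5139th. The genes most like Ager included Hopx and Pdpn, both type 1 cell genes, with rho of 0.882 and 0.879, beside Tcf7, 1300014I06Rik, Sod3 and Icam1. For Sftpc they were Msrb2, Mvp, Upb1, Sec14l4, Gfpt2 and Arhgap44 (rho 0.779 to 0.818), and for Foxj1 Pdcd5, Rcsd1, Dkk3, Fth1, C1qtnf1 and Pkdcc (0.756 to 0.838). None of these 12 was in the lists of further alveolar type 2 or ciliated cell genes. Those lists hold at most 20 and 24 of the 12147 genes ranked, so this absence says little about cell type.

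Other genes of the same cell types were read from lists chosen with earlier results known. Of 25 further club and secretory genes, 10 had the same 4 tumors as their lowest. They include Cbr2, a carbonyl reductase of club cells, at 17.1 to 25.6 CPM against 77.5 to 586 CPM, and Aldh1a1, a retinal dehydrogenase, at 45.5 to 106 CPM against 136 to 704 CPM. So did 7 of 20 further type 2 genes, among them Slc34a2, a phosphate transporter (14 to 23.5 CPM against 32.5 to 107.6 CPM), Sftpa1, for surfactant protein A, and Lamp3, a lamellar body protein. This held for 0 of 24 further ciliated genes and 0 of 17 further type 1 genes. Over the 12148 tested genes with a mean of at least 5 CPM the share was 3.136%. A count of 0 in lists this short therefore does not set them apart from other genes.

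The same 4 tumors were compared in summed marker levels of other cells. The endothelial sum was 411 to 522 CPM in them and 477 to 1208 CPM in the other 12. Vwf, of highest mean in that list, lay at 75.3 to 417.6 and 285.3 to 986.8 CPM, but Pecam1 at 22.1 to 74.2 and 32.2 to 56.4 CPM. The fibroblast sum was 405 to 886 and 352 to 986 CPM, and the macrophage sum 177 to 444 and 310 to 788 CPM. The neuroendocrine sum was 6161 to 9603 and 9011 to 14740 CPM. As single genes, 0 of 14 endothelial, 0 of 12 fibroblast, 0 of 12 macrophage and 1 of 15 neuroendocrine genes had these 4 tumors lowest. Of all tested genes with a mean of at least 5 CPM, 3.136% did. The sum of the further type 1 genes was 1235 to 1545 CPM against 1577 to 2306 CPM. Of 14 lung epithelial transcription factor genes, 3 had these 4 tumors as their lowest, among them Cebpa and Elf5. Cebpa lay at 9.43 to 20.6 CPM against 24.1 to 99.7 CPM and Elf5 at 0.971 to 1.28 CPM against 2.52 to 30.8 CPM. Nkx2-1 did not, at 159.5 to 364.7 CPM against 206.3 to 392.6 CPM, nor did Foxa2, at 135.8 to 347.8 CPM against 81.2 to 296.8 CPM. The part of tumor cells and of lung tissue in the club cell levels was not tested.

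Between genotypes, 19 of the 22 tested further club genes were higher in p107 tumors and 3 lower, with a median log2 fold change of 1.11, and 0 passed. Cyp4b1, a fatty acid hydroxylase, was at 43.5 ± 36.2 CPM against 14.3 ± 10.4 CPM and Gsta3, a glutathione transferase, at 20.3 ± 22.8 CPM against 6.81 ± 3.95 CPM (SD, n = 8 each; edgeR adjusted p = 0.25 and 0.278). Of 17 tested ciliated genes 5 were higher and 12 lower (median -0.63), and 0 passed. Fam183b, a ciliated cell transcript, was at 1.62 ± 1.30 CPM against 10.3 ± 11.8 CPM, and Rsph4a, a radial spoke gene, at 0.817 ± 0.484 CPM against 2.54 ± 1.69 CPM (SD, n = 8 each; edgeR adjusted p = 0.176 and 0.228).

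Of the 20 further type 2 genes, 16 were higher and 4 lower in p107 tumors (median 0.29), and 1 passed. It was Egfl6, a secreted protein with EGF repeats, at 28.2 ± 10.2 CPM against 8.36 ± 3.04 CPM (SD, n = 8 each; 1.75 ± 0.27 SE on the log2 scale, edgeR adjusted p = 0.0202). With counts summed per mouse, or with mouse as a random effect in voom, 0 genes were called higher in p107 tumors, so this call was lost. It was also lost without any one of the mice sgp107_6629, sgp107_6631, sgp130_6637 and sgp130_6638, or of the tumors sgp107_6630T2, sgp130_6637T1 and sgp130_6638T5, where again 0 genes were called higher. Ctsh, a cathepsin that processes surfactant protein, was at 102 ± 47.3 CPM against 61.3 ± 11.6 CPM (SD, n = 8 each; edgeR adjusted p = 0.242). Of 17 further type 1 genes, 14 were higher and 3 lower (median 0.20), and 0 passed. Over all 14857 genes the median log2 fold change was 4.15e-05, and over the 10 airway and alveolar genes it was 0.68.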

How the data were processed

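Total RNA of frozen tumors was made into libraries with a KAPA mRNA kit, per the labels' protocols. The authors deposited estimated counts for each gene in each tumor; the submitters' processing notes list Bowtie 1.0.1, RSEM 1.2.12 and build mm9. Which annotation and strandedness were used is not given in the sources used here. Of the 10 genes, 1 (Cyp2f2) overlaps another gene, on the opposite strand, in GENCODE M21. The authors also deposited a normalized signal for 21523 rows, in which each column is the estimated counts times a constant, and it served as an alternative.

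Counts were rounded and tested over all genes with edgeR 4.0.16 (R 4.3.3; filterByExpr, TMM, robust quasi-likelihood, Benjamini-Hochberg, threshold 0.05), p107 minus p130, and checked on simulated data. DESeq2 1.42.0 and limma 3.58.1 gave alternatives. Levels are CPM with TMM factors, and tests of single genes used log2(CPM + 1). Tumors of a mouse are not independent animals, so p-values over tumors measure the spread between tumors, and tests over mice are given beside them. The 10 genes, the gene lists and the tests were chosen with earlier results of these data known. The 10 genes are always named; from each other list up to 4 genes of smallest edgeR p with a mean of at least 1 CPM could be named, and for Scgb1a1, Foxj1, Sftpc and Ager the 6 genes of highest rho with a mean of at least 5 CPM. Cbr2, Aldh1a1, Slc34a2, Sftpa1, Lamp3, Cebpa, Insm1, Sntn, Tekt1, Rsph1, Tppp3, Ccno and Vwf were chosen after their values were seen. Some genes of the lists are not reported here.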

Additional observations from a re-analysis of the deposited data

Results flagged for a closer look

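Foxj1 in tumor sgp130_6637T1 stood apart from its group, at 33.6 CPM against 3.62 to 10.4 CPM in the other 7 p130 tumors, a gap of 0.773 of the group's range. Of 20 groups of values examined (10 genes in 2 genotypes), this was the only such tumor, and chance gives about 1 in 20. In the same tumor the ciliary genes Rsph1 and Tppp3 lay at 52.9 CPM and 35.9 CPM and Fam183b at 38.1 CPM, with Tppp3 higher only in sgp130_6697T2 (38.85 CPM), and its summed level of further ciliated genes was 246.4 CPM, against 83.9 to 163.9 CPM in the other p130 tumors. Other genes among the further ciliated ones did not follow. Dnahc11 had its lowest level of all tumors here, at 0.2555 CPM. Ccno was at 2.25 CPM, against up to 21.84 CPM elsewhere, and Sntn was at 0. Rsph1, Tppp3 and Ccno were chosen after their values were seen.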

How the results depend on the processing

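Of the 10 genes, 0 passed (adjusted p under 0.05) under any of the 30 alternatives to the edgeR genotype fit, DESeq2 and limma included, with adjusted p from 0.148 to 0.999, and 8 kept their direction in all 30. Unadjusted p fell under 0.05 in some. Without mouse sgp107_6627, unadjusted edgeR p was 0.00555 for Scgb1a1, 0.00779 for Scgb3a1, 0.015 for Scgb3a2 and 0.0146 for Cyp2f2. It was 0.00626 for Sftpd, 0.0452 for Aqp5 and at least 0.068 for the rest, with 2399 of 15034 genes under 0.05. Unadjusted DESeq2 p was 0.0284 for Scgb1a1, 0.0351 for Scgb3a1 and 0.04 for Sftpd. With counts summed per mouse, the lowest unadjusted edgeR p was 0.0883 (Aqp5). Foxj1 turned to -0.137 without mouse sgp130_6638 and -0.052 without mouse sgp130_6697, with a range over single mice from -0.137 to 0.715 and over single tumors from -0.043 to 0.627 (lowest without sgp107_6630T2; -0.015 without sgp130_6697T1). With sgp130_6697 as the only p130 mouse Foxj1 was at 0.821 and Sftpc at 1.51. Sftpc turned to -0.189 without mouse sgp130_6697 and -0.011 without mouse sgp107_6631, with ranges from -0.189 to 0.491 and from -0.061 to 0.287 (negative without sgp107_6629T2, sgp107_6631T2, sgp130_6697T1 or sgp130_6697T2). The count of genes called over the whole table, 4, was 335 with DESeq2, 1 with counts summed per mouse, 0 in voom with mouse taken as random, 0 with limma on the deposited normalized table and 0 with mouse sgp130_6697 as the only p130 mouse (2325, 1013, 935, 1825 and 1037 genes at an unadjusted p under 0.05). Leaving out single mice or tumors gave 0 to 10. Of 45 pairs of genes, 21 passed by rho over 16 tumors, 12 over the means of 7 mice, 0 within p107, 10 within p130 and 11 without the 4 tumors of lowest Scgb1a1, the last chosen after seeing the data. The cause of these changes was not tested. No paired analysis was possible because tumor numbers in the 2 groups belong to different mice.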
